A study of Mus musculus with 106 samples.

Results

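Primordial germ cells (PGCs), from which eggs and sperm descend, were compared at 2 neighbouring stages of the mouse embryo: 8 single cells of the early head fold (EHF) stage were set against 8 single cells of the Early/Mid-Bud (E/MB) stage. The 16 cells were chosen by the stage in their titles, the series holding 90 further single cells, and each hybridised array carried the amplified cDNA of 1 cell. Both groups came from wild-type C57BL/6 embryos, and per the labels both were kept because their cDNA was positive for Blimp1 (Prdm1) and stella (Dppa3); cells were also screened for fragilis (Ifitm3), so the presence of these transcripts is not a finding here. Fragments holding PGCs were cut from the embryo, dissociated with trypsin and EDTA, and cells were picked at random. No embryo or litter is named for any cell, so each stage counted as 1 sample of 8 cells: no test was run, and every difference below describes these cells and not the stages at large.

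PGCs arise from the posterior epiblast under BMP and Wnt signals, and the repressor Blimp1, with Prdm14 and Tfap2c, turns off the mesodermal programme of their neighbours and restores genes of pluripotency. At the bud stage they lie as a cluster at the base of the allantois, and around the head-fold stage they spread into the endoderm of the forming hindgut, from where they later move to the genital ridges. Over the same days they are known to slow their division and to reset histone and DNA methylation. FGF, Wnt, cytokine and mitochondrial genes are relevant because the tissue around the cells is rich in posterior FGF and Wnt ligands, and because moving cells change their matrix and energy supply.

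Values are log2 array signal, raised to a floor of 6.13 that was set by probe sets for genes not used in these tissues, such as olfactory receptors. Detection in a cell means a signal above the background limit of that cell, which lay between 6.50 and 7.20 on the log2 scale in the 16 cells. A difference is the EHF mean minus the E/MB mean of this log2 signal, and a size of 1 log2 unit was used to count genes. Low expression and loss of a transcript during amplification cannot be told apart in a cell at the floor. A gene detected in 0 of 8 cells has an exact (Clopper-Pearson) 95% interval that reaches 36.9% of cells. Intervals of this kind take the cells as independent draws, which the labels do not show, and cover counting error only.

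Both groups had similar numbers of detected genes and carried germ cell markers. Genes detected per cell numbered 7099.75 ± 488 (SD, n = 8 cells) at EHF and 7196.88 ± 578 at E/MB, and the hybridisation spikes averaged 10.01 ± 0.41 and 9.77 ± 0.17 in log2 signal. All 7 germ cell markers (Prdm1, Prdm14, Tfap2c, Dppa3, Kit, Dnd1 and Alpl) were detected in all 16 cells. Prdm1 and Dppa3 had been used to choose the cells. The sexes were not balanced. Xist, the RNA that coats the inactive X chromosome of female cells, was detected in EHF replicates 4 to 8 (5 of 8 cells) and in 0 of 8 E/MB cells, while Y-linked transcripts were found in the other 11 cells and never beside Xist. Xist itself differed by 2.61 between the groups. Where a gene named below falls under 1 log2 unit with only the 3 EHF cells without Xist, or with only the 5 with it, that value stands beside the main one. The 214 X-linked genes exceeded the 7025 autosomal genes by 0.22 ± 0.06 at E/MB and by 0.14 ± 0.13 at EHF, and by 0.11 ± 0.14 in the 5 EHF cells with Xist.

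The stages were close to each other. Of 18193 genes, 349 (1.92%) were higher and 410 (2.25%) were lower by at least 1 log2 unit at EHF, and among the 7250 broadly detected genes (those found in 50% or more of all cells) the counts were 250 (3.45%) and 309 (4.26%). Higher genes made up 46.0% of the genes past 1 log2 unit, but 25.7% when arrays were scaled to the spikes, which moved the median difference over the broadly detected genes (-0.01) to -0.23; with the 3 EHF cells without Xist alone it was 53.7%. The split by direction therefore depends on the scaling and on the cells used. Past 2 log2 units there were 16 higher and 18 lower genes. All 8 EHF cells stood above all 8 E/MB cells for 2 genes (0.011%), Etv4 and Sh3gl3, and below them for 2 (0.011%), Grb7 and Gaa. For Etv4, Sh3gl3 and Gaa the lowest cell of the brighter group lay below its detection limit. With a floor at the 95th percentile of background the counts were 0 and 1.

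Whole profiles overlapped as well. Over the 7250 genes, Pearson's r between a pair of E/MB cells averaged 0.654 (28 pairs), between a pair of EHF cells 0.687 (28 pairs), and between an EHF and an E/MB cell 0.661 (64 pairs). EHF cells were thus more alike among themselves, and E/MB cells were no more like each other than like EHF cells. The closest partner among the other 15 cells was of the same stage for 7 of 8 EHF cells and 3 of 8 E/MB cells. These correlations share cells and array design and are given as a description. EHF cells correlated at 0.684 with PGCs of E8.25, at 0.6005 with Blimp1+ Hoxb1+ cells whose description says EHF (their title says E/MB), and at 0.579 with posterior mesoderm of E/MB, chosen by Oct4 and Hoxb1 without Blimp1.

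**Figure D1:**
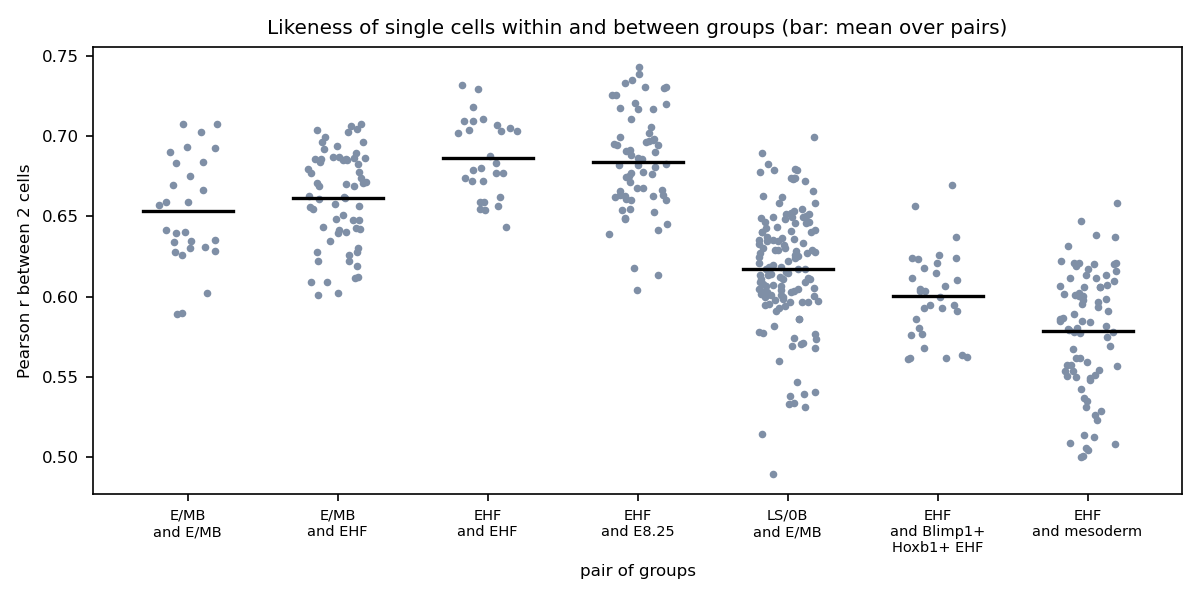
Pearson r between 2 single cells (vertical axis) for 7 pairs of groups (horizontal axis), over 7250 genes; each point is a pair of cells and each bar the mean over pairs. Pairs across the EHF and E/MB stages average 0.661, between the pairs within E/MB (0.654) and within EHF (0.687), while EHF PGCs against mesoderm average 0.579.

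Etv4 led the genes that were higher at EHF, of which the 20 with the largest differences among those detected in at least 6 of 8 EHF cells are described. Xist, in 5 EHF cells, is not among them. This ETS-family factor, a known target of FGF signalling, was detected in 7 of 8 EHF cells and 0 of 8 E/MB cells. Its signal at E/MB ran from 6.13 (median 6.13) to 6.27, and at EHF from 6.73 (median 9.68) to 11.10, so all EHF cells lay above all E/MB cells, with EHF replicate 5 the only one below its detection limit. The means were 9.49 ± 1.36 and 6.15 ± 0.05 (SD, n = 8 each), a difference of 3.35. With E/MB cells placed at their detection limits and the EHF mean taken before the floor was applied, the gene was at least 6.24-fold higher, and bounds on other folds were made the same way. The gene has another probe set on the array, which stood at the floor in both groups (difference 0.00), so the statement rests on 1 probe set.

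Cdx1, a caudal homeobox gene that answers to Wnt and patterns the posterior body, was detected in 7 of 8 EHF cells and 1 of 8 E/MB cells. It ran from 6.13 (median 6.13) to 7.16 at E/MB and from 6.56 (median 8.70) to 10.22 at EHF, and the groups overlapped through EHF replicate 5 alone. The difference was 2.25, or 3.09 for the EHF cells without Xist. Nfkbia, which encodes the inhibitor IkappaB alpha and is itself switched on by NF-kappaB, was detected in 6 of 8 EHF cells and 0 of 8 E/MB cells. Its E/MB cells lay between 6.13 and 6.16, and its EHF cells between 6.13 (replicate 8) and 10.76 with a median of 9.06. The difference of 2.47 corresponded to at least 3.20-fold. The gene has 5 probe sets, whose differences ran from 0.00 to 2.47, so here too the statement rests on the brightest one.

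The 5′ flank of Nfkbia is shown because the gene is a standard example of a promoter that carries NF-kappaB sites. It is the 250 bases before the RefSeq start on the minus strand of chromosome 12 (GRCm38.p6, chr12:55492648-55492897), 5′ to 3′, with the match to the kappaB consensus in capitals.
Nfkbia: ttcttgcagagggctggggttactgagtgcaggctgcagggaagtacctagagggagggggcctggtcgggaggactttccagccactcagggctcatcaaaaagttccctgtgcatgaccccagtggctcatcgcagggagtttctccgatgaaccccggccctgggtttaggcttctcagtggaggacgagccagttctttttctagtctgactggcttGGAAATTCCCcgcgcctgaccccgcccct
The match began 29 bases before the start. Among 32851 promoters of the table, each reaching from 250 bases before to 50 bases after a start, 8.46% held a kappaB match on either strand. Of the 20 genes named as higher at EHF, 15 were in the table with 20 promoters, and 2 of these held a match (Kctd15 and Nfkbia). Among 21 promoters of the genes named as lower, 2 held one (Cldn12 and Pxdn). The ETS string CCGGAAG stood in 8.86% of all promoters, in 1 of the 20 and in 4 of the 21. Such a match is a string of letters and not a bound site.

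The other genes are ordered by known role, an order made after the values were seen and not counted against all genes. Slpi, a secreted protease inhibitor, differed by 3.05 and was detected in 6 of 8 EHF cells and 1 of 8 E/MB cells, where replicate 7 alone stood at 10.84. Limch1, a protein of the actin and myosin cytoskeleton, was among the most even: EHF cells ran from 8.92 (median 9.97) to 10.60 and E/MB cells from 6.13 (median 6.13) to 9.17, a difference of 2.81. Tmsb4x, an X-linked gene for an actin-binding peptide, differed by 2.23, and by 1.57 in the EHF cells without Xist. Its E/MB cells were widely spread, from 6.13 to 11.62.

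Flvcr2, a membrane transporter, was detected in 8 of 8 EHF cells and 2 of 8 E/MB cells, with means of 9.24 ± 0.98 and 6.82 ± 1.27. Slc39a14, a zinc and manganese carrier, was detected in 8 and 3 cells and differed by 2.41. Gpld1, a phospholipase that releases proteins from their lipid anchor, differed by 2.18 (7 and 3 cells), and Bace1, the beta-secretase, by 2.26 (7 and 0 cells, at least 1.73-fold). Each of these genes was at or near the floor in most E/MB cells. Sh3gl3, an endophilin of membrane traffic, separated the groups by the narrowest of margins: all 8 E/MB cells were at 6.13, the lowest EHF cell at 6.19, and the difference was 1.65 (at least 1.90-fold).

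The remaining genes of these 20 lay between 1.91 and 2.32. Kctd15, a repressor known from neural crest work, was detected in all 8 EHF cells, from 8.63 to 11.52, but also in 4 E/MB cells that reached 11.25. Ssbp4, Tcf20, Otud3, Rprd1b, Lad1, Mbp, Tmem229b, Igdcc3 and Rdh14 completed the set. Mbp, best known for its part in myelin, was detected in 8 EHF and 6 E/MB cells and differed by 1.96. With the mean over its probe sets Mbp fell below 1. Tmem229b was the 1 gene of the 12 with several probe sets for which every probe set was higher by at least 1, the lowest by 1.01. Of the 20 genes, 10 were detected in all 8 EHF cells and 3 in 0 E/MB cells, and 18 still reached 6 EHF cells under a stricter detection limit.

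**Figure D2:**
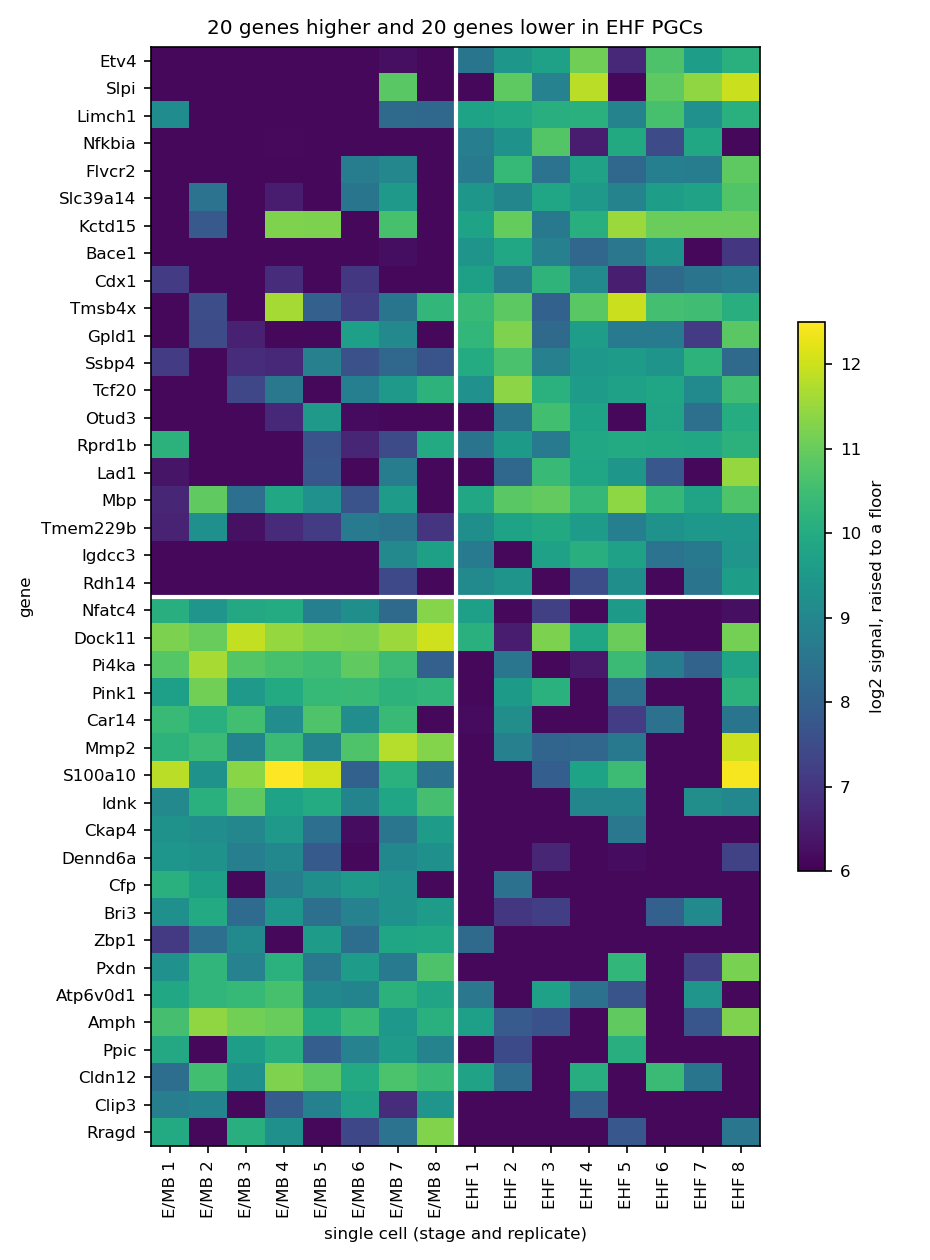
Log2 signal raised to a floor (colour) of the 20 genes with the largest positive (upper block) and the 20 with the largest negative differences (lower block) among genes detected in at least 6 of 8 cells of the higher group, 1 row per gene, in each of the 8 E/MB cells (left) and 8 EHF cells (right). The genes were chosen by this difference, so the contrast of the blocks is given. What varies is the evenness, with Limch1 between 8.92 and 10.60 in all EHF cells and S100a10 between 6.13 and 12.42. The rule asked for detection in EHF cells for Limch1 but in E/MB cells for S100a10, so these ranges are not like for like.

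Among the genes lower at EHF, Pink1, the kinase that marks damaged mitochondria for removal, was detected in 8 of 8 E/MB cells, between 9.52 (median 10.24) and 11.12. In EHF cells it ran from 6.13 (median 7.27) to 10.17 and was detected in 4 of 8. The means were 10.19 ± 0.49 and 7.85 ± 1.92, a difference of -2.34, and its other probe set gave -2.12. The EHF cells were divided rather than uniformly low, with replicates 2, 3 and 8 within or close to the E/MB range and replicates 1, 4, 6 and 7 at the floor. The 3 EHF cells without Xist gave -1.57 and the 5 with it -2.79.

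Dock11, an X-linked activator of Cdc42, a GTPase of cell polarity and movement, ran from 10.99 (median 11.38) to 12.03 at E/MB. At EHF it ran from 6.13 (median 9.98) to 11.21 and was detected in 5 of 8 cells. The difference was -2.44, and -2.16 without the Xist cells. Mmp2, a secreted gelatinase that degrades matrix, ran from 8.94 to 11.77 at E/MB and from 6.13 to 11.999 at EHF, where replicate 8 gave the highest value and the next was 8.82. Its difference was -2.33, and -2.27 for the other probe set. The 2 probe sets of Mmp2 and of Pink1 read the same amplified cDNA and are not separate samples.

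Nfatc4, a transcription factor controlled by calcium and calcineurin, had the largest negative difference of the 20, -2.47, with 8 of 8 E/MB and 3 of 8 EHF cells. With the mean over its probe sets Nfatc4 fell below 1 in size. Pi4ka, a kinase that makes phosphatidylinositol 4-phosphate, came after Dock11 with -2.42 (8 and 5 cells). Grb7, an adaptor that binds receptor tyrosine kinases, was the only gene detected in all 8 E/MB cells whose groups did not overlap: E/MB cells ran from 9.30 (median 9.64) to 10.03 and EHF cells from 6.27 (median 8.10) to 9.19. The difference was -1.82, so the separation came from how tight the E/MB cells were. Gaa, the lysosomal enzyme that breaks down glycogen, was at the floor in all 8 EHF cells and ran from 6.21 (median 7.61) to 9.05 at E/MB, at least 1.73-fold lower.

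**Figure D3:**
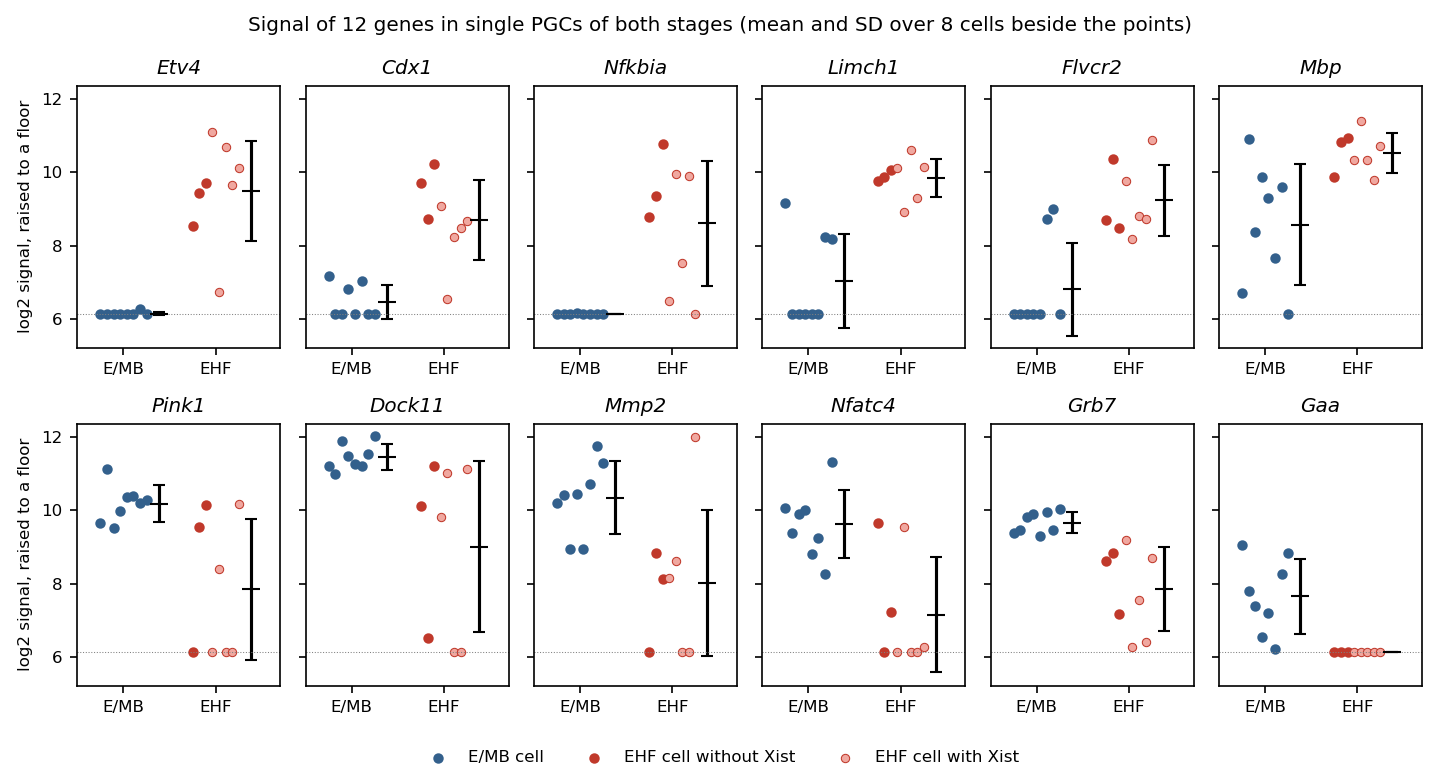
Log2 signal raised to a floor (vertical axis, dotted line at the floor) of 12 genes in single E/MB cells (blue), EHF cells without Xist (filled red) and EHF cells with Xist (open red), with the mean and SD over 8 cells in black. Etv4 and Gaa separate the stages with 1 group at or near the floor, Grb7 separates them by 0.11, and Pink1 and Dock11 divide the EHF cells into high cells and cells at the floor.

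The flank of Gaa is shown because the gene is a lysosomal one and lysosomal genes often carry the palindrome CACGTG near their start. These are the 250 bases before the RefSeq start on the plus strand of chromosome 11 (GRCm38.p6, chr11:119267713-119267962), 5′ to 3′, with CACGTG in capitals.
Gaa: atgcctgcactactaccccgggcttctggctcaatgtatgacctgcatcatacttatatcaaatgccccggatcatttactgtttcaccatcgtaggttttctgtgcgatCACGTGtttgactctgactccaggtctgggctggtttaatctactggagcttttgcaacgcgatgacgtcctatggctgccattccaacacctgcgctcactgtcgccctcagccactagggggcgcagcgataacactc
The match began 140 bases before the start, and CACGTG stood in 7.15% of all promoters of the table. Of the 20 genes named as lower at EHF, 16 were in the table with 21 promoters, of which 4 held CACGTG; these belonged to Atp6v0d1, Bri3 and Dennd6a. Among the 20 promoters of the higher genes, 3 held it.

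Other lower genes are known from several membrane compartments. Atp6v0d1, a subunit of the proton pump that acidifies lysosomes, was detected in 8 E/MB and 5 EHF cells (-2.10). Rragd, a GTPase that ties mTOR to the lysosome, was detected in 6 and 2 cells (-1.95), and Dennd6a, an activator of an endosomal Rab, in 7 and 1 cells (-2.25). Ckap4, a protein of the endoplasmic reticulum, was detected in 7 and 1 cells (-2.27), and Amph, an endocytic adaptor, in 8 and 6 cells (-2.09). The cells of the groups overlapped for all 5 of these genes.

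S100a10, the partner of annexin A2, ran from 8.02 (median 10.75) to 12.49 at E/MB and from 6.13 (median 7.04) to 12.42 at EHF (-2.32). Pxdn, a peroxidase of basement membrane, was detected in 8 and 3 cells (-2.10), Cldn12, a claudin, in 8 and 5 (-1.97), and Car14, a carbonic anhydrase of the cell surface, in 7 and 4 (-2.33). EHF replicate 8 held the highest EHF value of Mmp2, S100a10, Pxdn and Amph. Cfp, the complement factor properdin and X-linked, was detected in 6 E/MB cells and 1 EHF cell (-2.19), and Zbp1, a sensor of foreign nucleic acid, in 7 and 1 (-2.14). Idnk, Bri3, Ppic and Clip3 completed the 20.

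Markers of neighbouring tissue were measured beside these genes. Of 15 markers of posterior mesoderm and allantois, 2 (13.3%) were lower by at least 1 at EHF, Mesp1 (-1.29) and Bmp4 (-1.15, and -0.77 with only the Xist cells). Of the 15, 0 were higher, and the median was -0.13. Lower by this size were 2.25% of all genes and 4.26% of broadly detected genes, and so few markers give coarse shares. Evx1 (-0.94) and Hand1 (-0.93) came close, and Tbx4 stood at 0.09 with 0 cells detected. The summed signal of the 15 was 1799 to 10706 (median 5358) in E/MB PGCs, 1200 to 4294 (median 2148) in EHF PGCs, and 9756 to 18941 (median 16127) in posterior mesoderm cells. Detected in no cell were 6 of the 15 markers at E/MB, 8 at EHF and 1 in mesoderm. EHF replicates 8 and 5 had the highest sums of their group, 4294 and 4230. Of 11 gut endoderm markers, 2 (18.2%) were lower, Sox17 (-1.36, and -0.84 with only the Xist cells) and Cpm (-1.64). Of the 11, 0 were higher, with a median of -0.15 and Trh at 0.36. They summed to 1539 to 4606 (median 2562) at E/MB, 291 to 4368 (median 1396) at EHF, and 138 to 800.2 (median 205) in mesoderm cells. Markers of blood and endothelium summed higher at EHF (345 to 4126, median 1824) than at E/MB (440 to 2851, median 960.3). What part RNA of other cells has in the lower genes was not tested. Of the 20 lower genes, 12 were detected in all 8 E/MB cells, 18 reached 6 of them under the stricter limit, and 0 were undetected in all Blimp1+ Hoxb1+ and mesoderm cells; of the higher genes 3 were (Flvcr2, Gpld1 and Mbp).

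All 20 higher and all 20 lower genes kept a difference of at least 1 log2 unit in their direction with only the EHF cells without Xist, with only those with it, and with any 1 of the 16 cells left out. These genes were chosen as the largest differences, the weakest being 1.91 and -1.95. That they stayed past 1 is thus partly set by the choice and is no separate evidence. The same genes were less stable to the choice of probe set. Of 12 higher genes with several probe sets, 1 had all of them past 1 in the same direction, and of 14 lower genes 4 had (Pink1, Mmp2, Cfp and Cldn12). For 5 of the 12 higher and 3 of the 14 lower genes, another probe set differed in the opposite direction, by whatever size. Many of the additional probe sets were dim. More than 1 probe set was detected in at least 6 of 8 cells of the higher group for 2 of the 12 higher and 8 of the 14 lower genes, and all such probe sets passed 1 for 1 and 6 of these.

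The levels along the lineage place the difference among the other stages. The neighbouring steps share the cells compared here, so their values stand side by side and are not separate evidence. From the E/MB PGCs on, the counts of higher and lower genes were 312 (1.71%) and 279 (1.53%) for E8.25 minus EHF, and for E/MB minus the precursors of the Late-Streak/0-Bud (LS/0B) stage they were 539 (2.96%) and 484 (2.66%). Etv4 averaged 6.97 at LS/0B, 6.15 at E/MB, 9.49 at EHF and 8.99 at E8.25. Cdx1 averaged 7.36, 6.46, 8.71 and 7.496 at these stages, and 8.93 in mesoderm of E/MB. Flvcr2 was at 6.13, 6.82, 9.24 and 7.08, with EHF the highest of the 4. Mbp went from 6.47 to 8.57, 10.52 and 10.65.

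Levels by stage differed among the lower genes. Pink1 averaged 7.73 at LS/0B, 10.19 at E/MB, 7.85 at EHF and 8.45 at E8.25, so that E/MB stood alone as high. S100a10 averaged 11.97, 10.46, 8.14 and 7.22, lower at each later stage, and 12.04 in mesoderm. Dock11 was at 11.14, 11.45, 9.01 and 8.9999, and Mmp2 at 9.69, 10.35, 8.02 and 7.91.

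**Figure D4:**
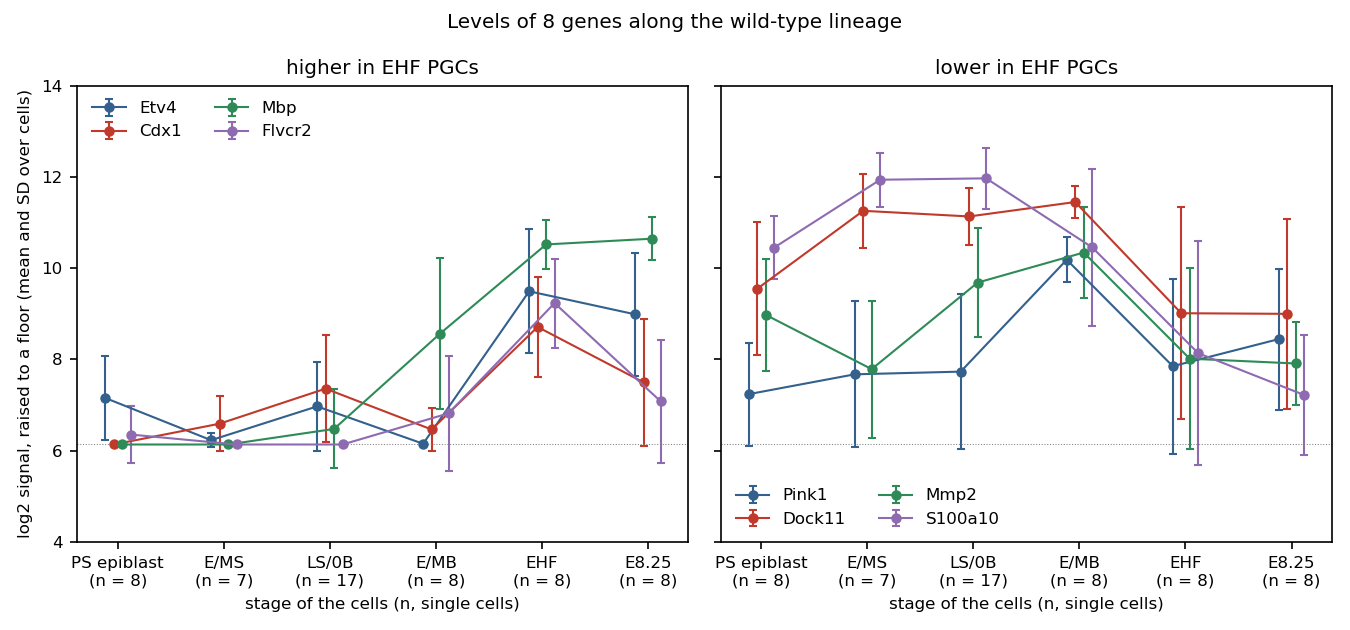
Mean log2 signal raised to a floor, with SD over cells (vertical axis), of 4 genes higher (left) and 4 genes lower (right) in EHF PGCs, at 6 stages of the wild-type lineage with the number of cells under each (horizontal axis; PS is pre-streak, E/MS Early/Mid-Streak). Etv4 stands at 6.15 at E/MB and 9.49 at EHF, Mbp stands at 10.52 at EHF and 10.65 at E8.25, and Pink1 is highest at E/MB with 10.19.

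Blimp1+ Hoxb1+ cells, chosen per the labels by transcripts of Blimp1, Oct4 and Hoxb1, were collected beside the PGCs. The 4 such cells described as EHF minus the 4 of E/MB gave 513 higher (2.82%) and 871 lower genes (4.79%). Etv4 differed by 0.56 there and Pink1 by -0.44. Of the 20 genes higher in EHF PGCs, 3 were higher by at least 1 in these cells (Slpi by 1.76, Tmsb4x by 2.10 and Igdcc3 by 1.34) and 0 lower. Of the 20 lower genes, 6 were lower and 3 were higher (Nfatc4 by 1.58, Bri3 by 1.82 and Clip3 by 1.44). With 4 cells a group, these values carry more noise than those of the PGCs, and the difference between the cell types was not tested.

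Gene lists for pathways, identity, chromatin, cell cycle and metabolism were described by counts and medians beside the background. The 39 lists held 563 symbols, of which 521 were measured and 99 detected in none of the 16 cells; members of that kind sit at or near the floor and could hardly pass 1. Of the 521, 18 (3.45%) were higher and 21 (4.03%) lower by at least 1, against 1.92% and 2.25% of all genes. The lists were written with earlier results of these data known and hold Etv4, Cdx1 and Pink1, markers given for this comparison. Their counts are therefore a description and support nothing. Of the 311 broadly detected members, 11 (3.54%) were higher and 16 (5.14%) lower, against 3.45% and 4.26% of all broadly detected genes. List medians lay between -0.26 and 0.19, against 0 for all genes.

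Few genes of the FGF lists passed 1, and activity of the pathway was not tested. Etv4 was the only one of 15 FGF and ERK response genes past 1, and 2 of the 15 were detected in none of the 16 cells. The list median was 0.06 (-0.06 with spike scaling). The response genes Etv5 (0.18), Dusp6 (-0.44), Spry2 (-0.90) and Spry4 (0.03) did not follow Etv4. Etv5 was detected in all 16 cells, at 11.46 ± 0.38 and 11.28 ± 0.61. Of 10 ligands and receptors, 0 were higher and 2 lower. Fgf8, a ligand of the posterior epiblast, was detected in 8 of 8 E/MB and 3 of 8 EHF cells, from 7.75 (median 8.48) to 9.88 and from 6.13 (median 6.53) to 9.69. Its difference was -1.49, and -0.49 in the EHF cells without Xist. Fgf17 differed by -1.12, and by -0.81 in those cells.

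Of 15 Wnt response and caudal genes, 2 were higher and 1 lower, with a median of 0.14. Sp5, a direct Wnt target, differed by 1.02 (6 and 2 cells; 0.94 with only the Xist cells) and Sp8 by -1.21 (-0.22 without them). Cdx2 was detected in all 16 cells at 10.28 ± 0.44 and 10.14 ± 0.62, Cdx4 differed by 0.19 and Axin2, a feedback gene of Wnt, by 0.36. Of 16 NF-kappaB and cytokine genes, Nfkbia was higher and Rela, a DNA-binding subunit of NF-kappaB, lower (-1.23). Of 13 Notch genes, Hey1, a Notch target, was higher by 1.65 and detected in 8 of 8 EHF cells between 9.95 and 10.66, against 6.13 to 10.78 at E/MB. The receptor gene Notch3 differed by 1.29 (0.53 with only the Xist cells) and the target Hes1 by -1.05, with 0 of 8 EHF cells and 3 of 8 E/MB cells detected. Retinoic acid response (10 genes, 6 of them in none of the 16 cells) and BMP response (14 genes, 2 in none) had 0 members past 1. Smad3 was the 1 lower of 11 Nodal and TGF-beta genes (-1.09, and -0.12 without the Xist cells), and Mtor the 1 higher of 14 PI3K and mTOR genes (1.13, and 0.98 with only the Xist cells).

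Genes of germ cell specification differed little, but Prdm1, Dppa3 and Ifitm3 among them served to choose or screen the cells. Of 13 specification genes, 0 were past 1 in either direction, with a median of 0.03 (-0.21 with spike scaling) and a mean signal per cell of 10.94 ± 0.18 at EHF and 10.90 ± 0.12 at E/MB. Among the genes used to choose cells, Prdm1 differed by -0.52, Dppa3 by 0.26, Pou5f1 by 0.46 and Ifitm3 by 0.06. Prdm14 differed by -0.34, Tfap2c by -0.03 and Kit, the receptor for the survival factor of PGCs, by 0.56. Of 18 genes of pluripotency, 2 were higher: Utf1, a chromatin protein of pluripotent cells, by 1.69 (6 and 3 cells) and Tfcp2l1 by 1.16 (4 and 0 cells). For Utf1 the difference was 1.03 without the Xist cells. Nanog (0.09) and Sox2 (-0.07) were near 0.

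Of 12 primed epiblast genes, 2 were lower, Fgf8 and Sox3. Sox3, an X-linked relative of Sox2, differed by -1.37 and by -0.60 without the Xist cells. Of 16 late germ cell genes, Ddx4, a germ cell RNA helicase, was lower (-1.33), with 4 of 8 E/MB cells and 0 of 8 EHF cells detected. Of 17 Hox genes 0 passed 1, and 11 of them were detected in none of the 16 cells. The medians of these 3 lists lay between -0.13 and 0.

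**Figure D5:**
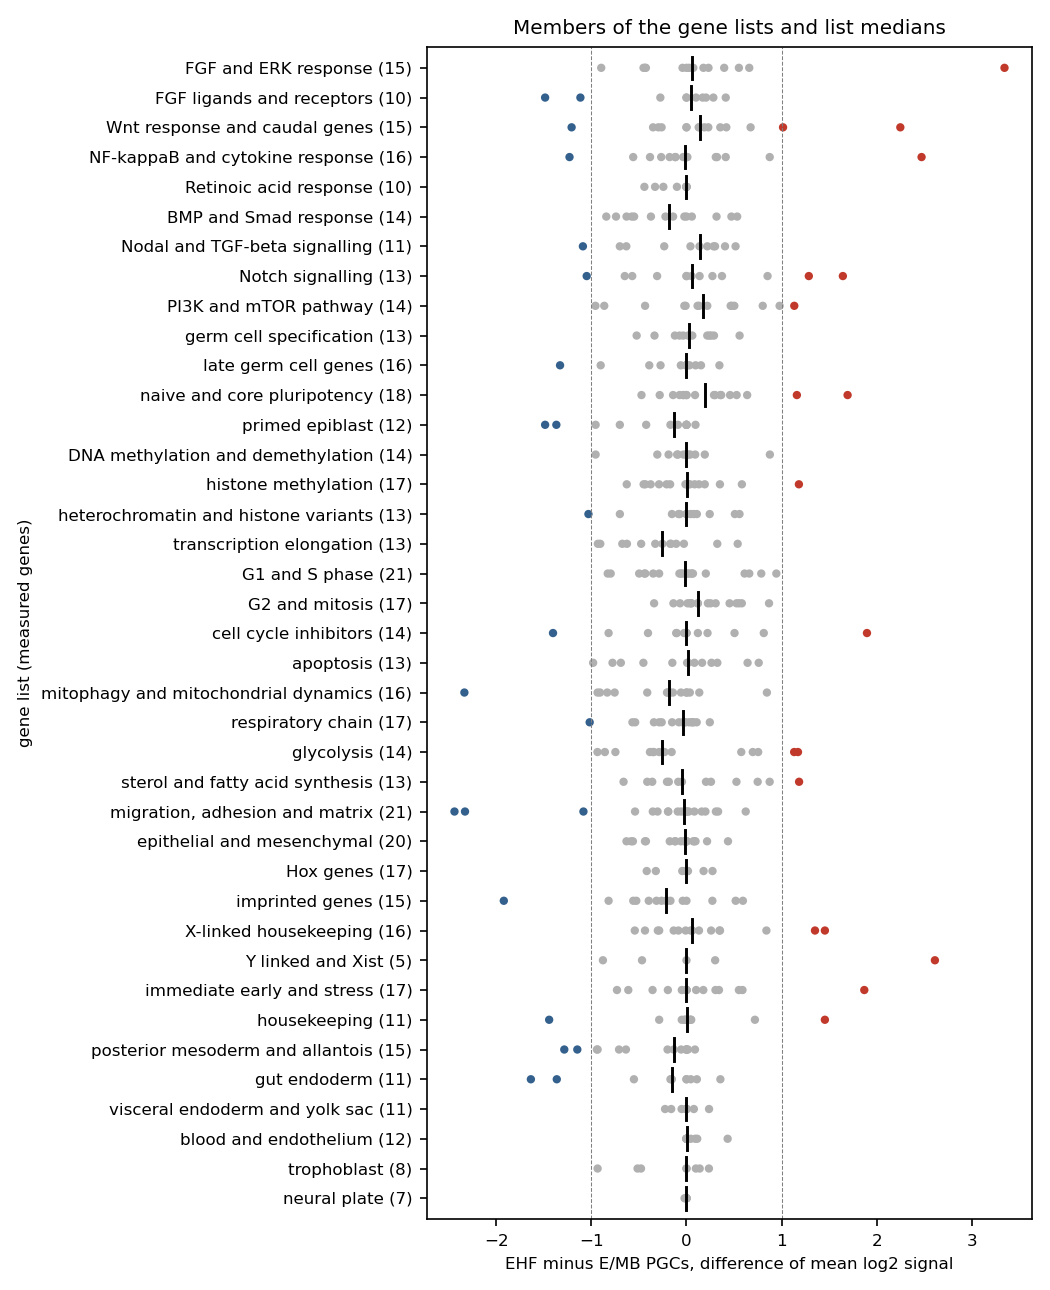
Difference of mean log2 signal, EHF minus E/MB PGCs (horizontal axis), of every measured gene (points) in 39 lists, with the number of measured genes after each name; red points are at or above 1, blue points at or below -1, and black bars are list medians. All medians lie between -0.26 and 0.19, while single genes such as Etv4 (3.35), Dock11 (-2.44) and Pink1 (-2.34) lie far from the median of their list.

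Chromatin lists had few members past 1. Of 14 genes of DNA methylation and demethylation, 0 were past 1. Dnmt3b, a de novo methyltransferase, differed by -0.96 and Uhrf1, the partner of maintenance methylation, by -0.10 with 3 and 2 cells detected. Of 17 histone methylation genes, Kdm4c, a demethylase of H3K9, was the 1 past 1 (1.18), while Ehmt1 (0.04), Ehmt2 (-0.17) and Ezh2 (0.00) lay near 0. Hmga2 was the 1 lower of 13 heterochromatin and histone variant genes (-1.03, and -0.85 with only the Xist cells). Of 13 elongation factors 0 passed 1, with a median of -0.25, the lowest being Supt5 at -0.93.

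Cell cycle lists had 0 of 21 G1 and S phase genes and 0 of 17 G2 and mitosis genes past 1, with medians of -0.02 and 0.12. The second was 0.40 in the EHF cells without Xist. Cdkn1a, the p21 inhibitor, was the 1 higher of 14 inhibitor genes: it differed by 1.90, with 6 of 8 EHF cells detected up to 10.44 and 3 of 8 E/MB cells up to 8.95. Rb1 was the 1 lower (-1.40). Of 16 genes of mitophagy and mitochondrial dynamics, Pink1 was the 1 past 1, and its neighbours in the list included Sqstm1 (-0.91), Opa1 (-0.83) and Mfn2 (0.85). Opa1 differed by 0.84 in the EHF cells without Xist and by -1.84 in those with it. In the respiratory chain Cox10 was the 1 of 17 lower (-1.02, and -0.98 without the Xist cells).

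Of 14 glycolysis genes, the hexokinases Hk1 (1.17) and Hk2 (1.13) were higher, Aldoa (-0.86) and Pfkl (-0.94) stood below 0, and the list median was -0.26. In the EHF cells without Xist, Hk1 differed by -0.35, the opposite direction, and Hk2 by 0.35. Scd2, a fatty acid desaturase, was the 1 higher of 13 lipid synthesis genes (1.18, and 0.995 with only the Xist cells). Of 21 genes of migration, adhesion and matrix, 0 were higher and 3 (14.3%) lower, with a median of -0.02. Lower by this size were 2.25% of all genes and 4.26% of broadly detected genes. The 3 were Dock11 and Mmp2, both among the 20 lower genes chosen as the largest differences, and Mmp14. Mmp14, the membrane protease that activates Mmp2, differed by -1.08 (3 and 7 cells), and by -0.71 with only the Xist cells. Cxcr4, the receptor that guides PGCs at later stages, was detected in 0 of the 16 cells. Grb10, an imprinted adaptor of insulin signalling, was the 1 lower of 15 imprinted genes (-1.92), with all 8 E/MB cells between 9.31 and 11.54. With the mean over its probe sets Grb10 fell below 1 in size.

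Lists that check the cells gave the scale of scatter. Of 11 housekeeping genes, Hprt was higher (1.46) and B2m lower (-1.44), so that differences of this size occurred among genes not picked for change. Hspb1, a small heat shock protein, was the 1 higher of 17 immediate early and stress genes (1.87), with 8 and 4 cells detected. The 16 X-linked housekeeping genes had 2 higher members, Hprt (on this list too) and Rbmx (1.35). Markers of visceral endoderm, blood and endothelium, trophoblast and neural plate had 0 members past 1 out of 11, 12, 8 and 7, of which 7, 9, 3 and 6 were detected in none of the 16 cells.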

How the data were processed

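The values the authors deposited are array intensity on a linear scale, for each probe set in each cell, from MAS5 per the submitters' processing notes; its version and scaling target, and what was done to low values, are not stated there. In the 16 cells, 15.6% of values were 1, the lowest, and 0 pairs of arrays were identical. Over all arrays 1 value was missing, taken as 1. The array has 45101 probe sets: 64 controls, 34945 with 1 gene symbol in the platform annotation, 932 with several and 9160 unnamed here. Probe sets with 1 symbol gave 18193 genes, each read from its probe set with the highest mean over all cells; 18145 symbols matched the RefSeq table of GRCm38.p6. Gene coordinates were used only for chromosomes and for the flanks printed.

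Background came from 126 probe sets (olfactory, vomeronasal and taste receptors and hair keratin-associated proteins). Their 90th percentile, as a median of all cells, set the floor (a signal of 70.2), and detection was a signal above their 95th percentile in the cell (99th for the stricter limit), 90.3 to 147 in these cells. Lower bounds on folds set the mean of the detected group, before the floor, against, in the other group, its cells raised to their detection limits where below them, on the log2 scale. The number of arrays limits the precision. Nothing was tested, and no standard error is given. Named genes were the 20 largest differences in each direction among genes detected in at least 6 of 8 cells of the higher group, genes whose cells did not overlap, Etv4, Cdx1, Pink1, the genes used to choose cells, Xist, and list members. Members, lists and rules were chosen with earlier results of these data known. Alternatives were no floor, another floor, the mean over probe sets, quantile normalization, centring, spike scaling, medians, EHF cells by Xist and each cell left out. The counting steps were tested on simulated data. Analyses used Python 3.11.15, numpy 2.4.6, pandas 2.3.3 and scipy 1.17.1.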

Additional observations from a re-analysis of the deposited data

Results flagged for a closer look

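Of 164 groups of 8 values, 23 held a cell whose gap to the nearest other cell exceeded Dixon's 95% limit, where chance gives about 1 in 20. In 9 of these groups the other 7 cells were all at the floor of 6.13, where a small excess of 1 cell passes the limit.

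Among EHF cells of the higher genes, Tmsb4x was low in replicate 3 (8.02; the others 10.11 to 11.97) and Igdcc3 was at the floor in replicate 2 (6.13; the others 8.47 to 10.08). Among the lower genes, single EHF cells stood out as high: Mmp2 in replicate 8 (11.999; the others up to 8.82), Ckap4 (8.61) and Ppic (10.09) in replicate 5, Cfp in replicate 2 (8.45), Zbp1 in replicate 1 (8.26) and Clip3 in replicate 4 (7.97). The mean pluripotency signal was highest in EHF replicate 6 (8.89; the others 7.79 to 8.29), and the mean of imprinted genes in EHF replicate 5 (9.39; the others 7.76 to 8.50).

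Among E/MB cells, replicate 7 stood out for Slpi (10.84) and Rdh14 (7.44), with the other cells at 6.13, and by small margins over the floor for Etv4 (6.27) and Bace1 (6.25), as did replicate 4 for Nfkbia (6.16). Otud3 was high in replicate 5 (9.51). Replicate 8 was low for Pi4ka (8.004; the others 10.46 to 11.64) and Car14 (6.13; the others 9.18 to 10.71), and replicate 6 for Ckap4 (6.22). The mean Notch signal was low in replicate 2 (6.83), the mean Hox signal high in replicate 8 (6.70), the mean of visceral endoderm and yolk sac markers high in replicate 7 (6.69), and the excess of X-linked over autosomal genes high in replicate 4 (0.34).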

How the results depend on the processing

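No paired analysis was possible because no embryo or litter is named that could pair the cells. The main counts were 349 higher and 410 lower genes. Without a floor they were 1434 and 1571, with the floor at the 95th percentile 199 and 202, with the mean over probe sets 167 and 180, with spike scaling 226 and 655, with medians over cells 649 and 795, and with the 3 EHF cells without Xist 815 and 704. Leaving out 1 cell gave 349 to 436 and 402 to 506. Higher genes outnumbered lower ones in 4 of 25 settings: the EHF cells without Xist, quantile normalization (360 and 350), without EHF replicate 7 (420 and 402) and without E/MB replicate 7 (436 and 419). The 2 genes above and 2 below without overlap became 0 and 1 with the higher floor and 83 and 80 with the EHF cells without Xist, where 3 cells make overlap rarer by construction. With the 5 EHF cells with Xist, chosen after seeing the data, they were 7 and 9. The genes below were 1 with the mean over probe sets and 8 with spike scaling, and the genes above 4 with quantile normalization; without 1 cell they were 2 to 6 above and 2 to 8 below. Of 975 list medians over 25 settings, 968 stayed within the spread and 7 moved: late germ cell genes (-0.15), cell cycle inhibitors (0.38) and neural plate (-0.42) without a floor; germ cell specification (-0.21), respiratory chain (-0.28) and housekeeping (-0.24) with spike scaling; and Y-linked genes with Xist (0.91) in the EHF cells without Xist. The 40 named genes had been chosen as the largest differences. All of them kept at least 1 log2 unit in their direction under every setting except the mean over probe sets. There 31 did, with Etv4 at 1.67, Mbp at 0.34 and Nfatc4 at -0.96. No named gene changed sign under these settings, none of which reads another single probe set by itself. List medians close to 0 did: 64 of the 975 values, from 13 lists whose main medians were at most 0.18 in size, had the other sign, and none of these exceeded 0.24 in size. With spike scaling the medians of G2 and mitosis (-0.12) and FGF and ERK response (-0.06) were negative, without a floor that of sterol and fatty acid synthesis was 0.21 (-0.05 in the main setting), and with the higher floor that of apoptosis was -0.05 (0.02). Of 40 further genes past 1 (list members, Sh3gl3, Grb7 and Gaa), 22 to 40 kept at least 1 in their direction over the settings, fewest with the mean over probe sets, and 30 to 39 with 1 cell left out, fewest without EHF replicate 6 or E/MB replicate 8; Hk1 reversed to -0.35 in the EHF cells without Xist, and Hes1 went to 0 with medians over cells. With the mean over probe sets, those of the 40 below 1 included Cox10, Ctsa, Fgf17, Grb10, Gusb, Hk1, Hmga2, Ids and Mmp14. Mtor, Notch3, Rb1, Rbmx, Scd2, Smad3, Sox3, Tfcp2l1 and Xist fell below 1 there as well. The causes were not tested. The floor limits what can be said of dim genes.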

Other observations

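A list of lysosomal genes was written after Atp6v0d1, Rragd and Gaa had been seen among the lower genes, so it is a description and supports nothing. Of 59 measured genes, 0 were higher and 7 lower by at least 1 at EHF, with a median of -0.21 against 0 for all genes. The lower share of 11.9% counts Atp6v0d1, Rragd and Gaa, the very genes that prompted the list. The share was 2.25% for all genes and 4.26% for broadly detected genes, and 41 of the 59 were broadly detected. Ctsz, a cathepsin, differed by -1.88 and was detected in 7 of 8 E/MB and 3 of 8 EHF cells, and Ctsa, which protects other lysosomal enzymes, by -1.44 (8 and 4 cells; -0.95 with only the Xist cells). Ids (-1.17) and Gusb (-1.01, and -0.31 with only the Xist cells), enzymes that degrade glycosaminoglycans, completed the 7. With the mean over probe sets Ctsa, Ids and Gusb fell below 1 in size. Npc1, a cholesterol carrier of the lysosome, differed by 0.95.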
